A study of Homo sapiens with 72 samples.

Results

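Macroautophagy begins when the ULK kinase complex activates the class III phosphatidylinositol 3-kinase, whose lipid product recruits WIPI proteins and the conjugation machinery that attaches ATG8 proteins to the growing membrane. The completed autophagosome fuses with the lysosome. On the lysosomal surface, Ragulator and the Rag GTPases recruit the kinase complex mTORC1, which restrains both ULK and the MiT transcription factors TFEB, TFE3 and MITF when nutrients are plentiful, and the folliculin complex acts on the Rag GTPases in that circuit. MiT factors bind the E-box core CACGTG and drive many lysosomal and autophagy genes.

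Here, 40 genes of this circuit were followed in PEO1 cells, an established line of high-grade serous ovarian carcinoma. The genes were chosen by name, by matching each transcript to a GENCODE gene, and were 40 of 56299 genes with a matched transcript. RucHigh and RucLow were the top and bottom 20% of cells treated with 8.5 µM rucaparib, ranked by the fluorescence of the drug itself. They were detached, sorted by FACS and then lysed. RucTotal cells had the same drug and were not sorted, and Vehicle cells had DMSO and were not sorted, and both were scraped directly into lysis buffer. Each of the 4 was collected after 2 h and after 24 h, and each of these 8 groups had 9 libraries, 3 for each of 3 replicates. All groups came from 1 line, and no sorted group without drug was analysed here. Rucaparib is a PARP inhibitor, and the series compared cells that took up much or little of it.

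The 72 libraries held 17391033 to 38899905 estimated reads each (median 33431403). The 3 libraries of a replicate were summed, which left 24 samples. Levels are given as CPM, which are counts scaled to library size by TMM, for comparisons of a gene between samples, and as TPM, which are per transcript length, for comparisons between genes. A gene was called when its adjusted p was below 0.05 in edgeR's quasi-likelihood test over 20135 genes. All 40 genes passed the filter on low counts, so all were tested. Counts of the 40 at an unadjusted p below 0.05 are given without the share of all genes at that cutoff. They are not read as a result about the 40. Of the epithelial markers, KRT7 was at 4069 to 7261 TPM and PAX8, a marker of serous ovarian carcinoma, at 33.7 to 87.4 TPM over the 24 samples. WT1, MUC16, EPCAM, KRT8, KRT18 and CDH1 were also on the list of epithelial markers, and their values are not given here. Of 11 leukocyte, fibroblast and endothelial markers, PTPRC, CD3E, COL3A1, PDGFRB, DCN, PECAM1 and VWF stayed below 1 TPM in every sample, whereas CD68 (5.78 to 19.1 TPM), CD14, COL1A1 and CDH5 were measured at low levels.

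Several properties of the samples touch the values below. The mean length of the transcripts behind the reads differed between samples. At 24 h it was 2746, 2711 and 3229 bases in RucTotal replicates 1 to 3, against 3120, 3107 and 3231 bases in Vehicle. After 24 h only replicate 3 therefore compared drug and vehicle at nearly equal transcript length. After 2 h the mean length was 2758, 2982 and 2890 bases in RucTotal replicates 1 to 3, against 2729, 2747 and 3078 bases in Vehicle. Lengths in Vehicle thus also differed between the times. RucLow replicate 1 stood apart from the other sorted samples at both times. Of the 40 genes, 7 (ATG14, FLCN, FNIP1, MITF, SQSTM1, TSC1 and UVRAG) were above all 10 other sorted samples in both RucLow replicate 1 samples, and 2 (RRAGA and WIPI1) were below all of them. Over all genes tested, 6.60% were above and 3.89% below in the same way. In RucLow replicate 2 after 2 h, library 2 had the fewest reads of all libraries (17391033) and the most genes detected (32210, median 22035). Its mean transcript length was 2351 bases. Mitochondrial reads made up 0.222% of it, against 3.39% and 1.86% in libraries 1 and 3 of that replicate. It was summed with them, and left out only in the fit without libraries under 2800 bases. Finally, not every coding transcript entered the sums. For 34 of the 40 genes all coding transcripts of GENCODE 29 were used. For ATG16L1 0 of 9 were, and 4 transcripts that lie outside the primary assembly annotation, of type not known here, gave most of its TPM. For SQSTM1 6 of 7, for LAMTOR5 5 of 6, for FNIP1 4 of 5, for MITF 12 of 14 and for TFEB 13 of 16 were used. Coding transcripts gave the smaller part of the TPM of ATG5 (23.5%), TSC2 (25.5%), ATG12 (32.02%), RPTOR (40.9%), RRAGD (41.7%), LAMTOR3 (42.7%) and LAMTOR4 (47.7%). In bulk RNA, fewer cells that express a gene and less RNA per cell cannot be told apart.

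Levels between genes spanned from SQSTM1, the cargo receptor p62, with a mean of 360.4 TPM (217.9 to 759.8 over the 24 samples), to FNIP2, a partner of folliculin, with 0.813 TPM (0.402 to 1.38). In all, 7 genes averaged over 100 TPM, 21 between 10 and 100 TPM, 11 between 1 and 10 TPM and 1 below 1 TPM. The 7 were SQSTM1, the ATG8 protease ATG4B (183.4 TPM), LAMTOR5, LAMTOR1 and LAMTOR4 of Ragulator, BECN1, the scaffold of the PI3-kinase complex (113.6 TPM), and the ATG8 protein GABARAP (102.6 TPM). Among MiT factors, TFE3 averaged 22.4 TPM (15.8 to 29.9), against 1.33 TPM for MITF (0.717 to 2.13) and 1.20 TPM for TFEB (0.469 to 1.83). The lowest TFE3 sample was thus above the highest sample of both others, while MITF and TFEB overlapped.

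Within complexes, levels were uneven as well. ATG13, the adaptor of the ULK complex, averaged 65.2 TPM, above the kinases ULK1 (8.17 TPM) and ULK2 (2.63 TPM). Of the ATG8 proteins, GABARAP was followed by GABARAPL2 (55.7 TPM), MAP1LC3B (32.5 TPM) and GABARAPL1 (15.8 TPM), and GABARAPL1 had the widest range relative to its mean, 8.13 to 44.2 TPM. RRAGC and RRAGA, which pair as a Rag heterodimer, averaged 33.8 and 28.9 TPM, and RRAGD, an alternative to RRAGC, 4.05 TPM. The kinase MTOR (8.09 TPM) and its inhibitor TSC1 (5.13 TPM) were below RPTOR, the scaffold of mTORC1 (28.3 TPM), and TSC2 (34.5 TPM). Reads can be shared between MAP1LC3B and its near copy MAP1LC3B2 (median 7.05 TPM) and between RRAGA and RRAGB (median 7.25 TPM), which makes the split between these pairs uncertain.

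**Figure D1:**
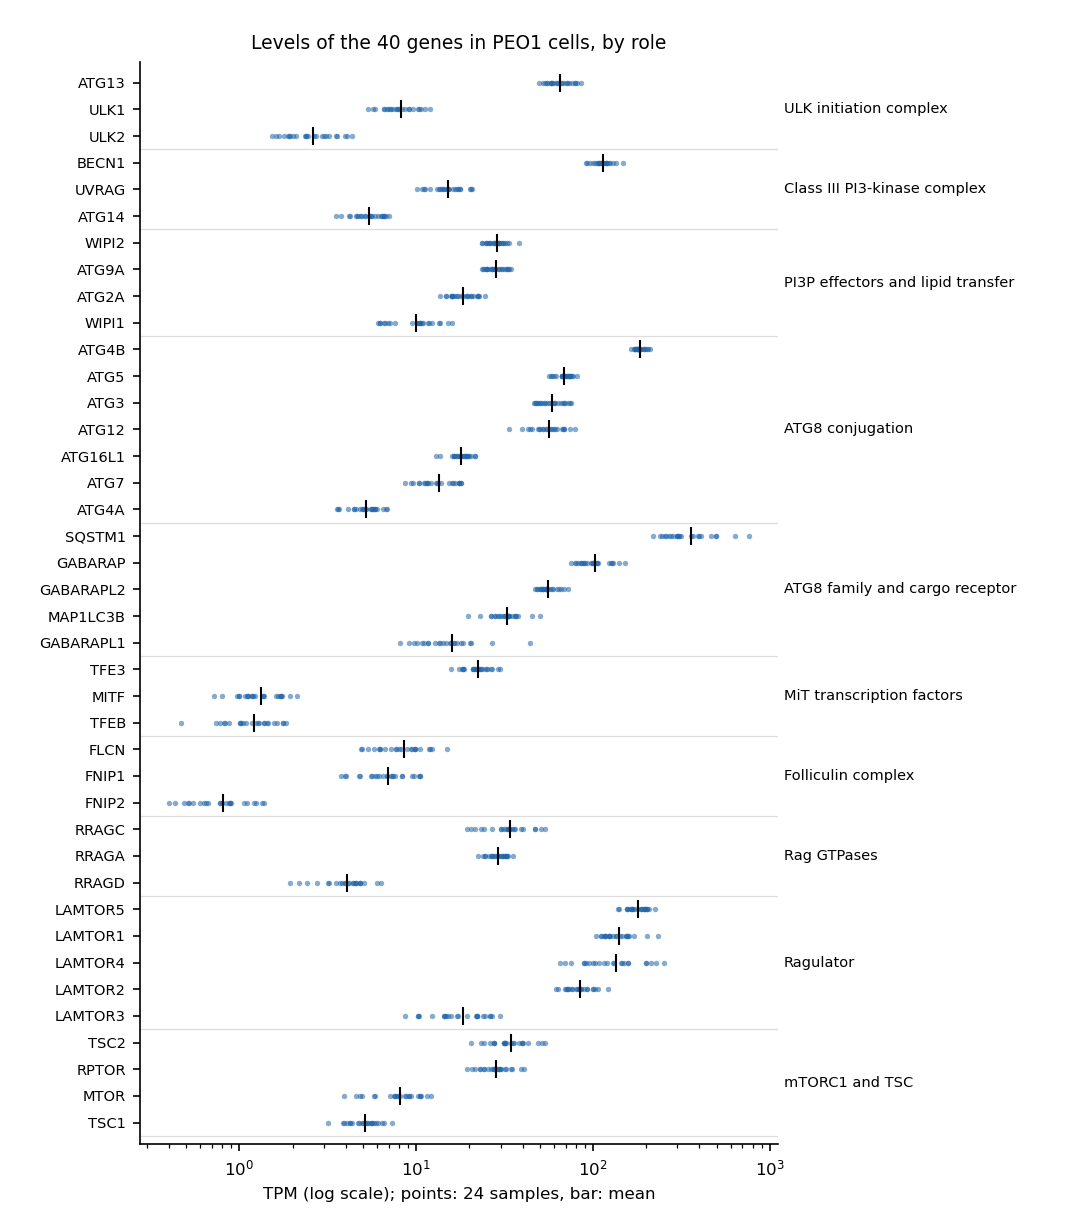
Levels of the 40 genes in TPM (log axis), grouped by role; each point is 1 of 24 samples and the bar is their mean. SQSTM1 is highest at a mean of 360.4 TPM and FNIP2 lowest at 0.813 TPM, and TFE3 lies above MITF and TFEB; ATG16L1 covers none of its 9 coding transcripts of the primary assembly.

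Between groups the levels of the genes lay close together. The ratio of the highest to the lowest of the 8 group means in CPM was 1.15 (RPTOR) to 1.98 (LAMTOR4), with a median of 1.34 over the 40 genes. It was under 1.5 for 29 genes and over 2 for 0 genes.

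The promoter windows of the genes are shown because they carry the E-box core that MiT factors bind. A RefSeq window of 300 bases (250 before to 50 after a start site, GRCh38.p14) was found for 37 of the 40 genes. RRAGA, RRAGD and UVRAG are named only. CACGTG, which reads the same on both strands, stood in 7 of the 49 windows of these genes (14.3%), against 2548 of 35116 windows of all genes (7.26%). The 8-base form TCACGTGA, which contains the core, stood in 2 of the 49, against 344 of all windows (0.980%). The genes were RRAGC, ATG3, FNIP1, LAMTOR4, LAMTOR1, ATG14 and TSC2, and capitals in the sequences mark the motif, 5′ to 3′ on the strand of the gene.
RRAGC (chr1:38859867-38859896, minus strand): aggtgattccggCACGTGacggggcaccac
ATG3, near the start (chr3:112561940-112561969, minus strand): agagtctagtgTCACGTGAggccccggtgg
ATG3, before the start (chr3:112561963-112561992, minus strand): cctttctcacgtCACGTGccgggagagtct
FNIP1 (chr5:131797094-131797123, minus strand): tccgcgcgccgcCACGTGatgcggcccccc
FNIP1, further upstream (chr5:131797175-131797204, minus strand): ccccgcccctgcCACGTGacgggacccgcc
LAMTOR4 (chr7:100148892-100148921, plus strand): agcggctgcaagCACGTGaccggggcctga
LAMTOR1 (chr11:72103445-72103474, minus strand): ctttccccgcatCACGTGcttgcgtgtacg
ATG14 (chr14:55411834-55411863, minus strand): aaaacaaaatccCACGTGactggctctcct
TSC2 (chr16:2047859-2047888, plus strand): atgcggccccgTCACGTGAtgcaaggatcg
In ATG3 the 2 cores began 6 bases after and 18 bases before the start site, in FNIP1 94 and 175 bases before it, in ATG14 21, in LAMTOR4 14, in RRAGC 112, in TSC2 114 and in LAMTOR1 165 bases before it. These matches are a description of the letters and not of binding. None of these 7 genes was called between RucTotal and Vehicle or between RucHigh and RucLow at either time, with or without the replicate number in the model.

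The first comparison asked how the drug changed unsorted cells. After 2 h, no gene of the 40 passed the test between RucTotal and Vehicle. By edgeR 0 of 40 were called, beside 0.0248% of all genes, and 2 of 40 had an unadjusted p below 0.05. DESeq2 also called 0, beside 0.502% of all genes. The median log2 fold change was 0.038 over the 40 genes and 0.0085 over all genes. The lowest value belonged to GABARAPL1, an ATG8 protein, and the highest to LAMTOR3, a Ragulator subunit.

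GABARAPL1 (chr12:10212458-10223130, plus strand) had 14.4, 14.2 and 13.6 CPM in RucTotal, against 37.9, 18.1 and 16.2 CPM in Vehicle after 2 h. The groups did not overlap, and Vehicle replicate 1 was the highest of the 6 samples by far. The log2 fold change was −0.78 ± 0.30 (SE), with an edgeR adjusted p of 0.66. After 24 h it had 11.6, 16.6 and 18.3 CPM in RucTotal, against 18.9, 23.1 and 23.7 CPM in Vehicle, again without overlap. The log2 fold change was −0.50 ± 0.30 (SE), with an edgeR adjusted p of 0.31.

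After 24 h, 1 of the 40 genes was called, beside 3.35% of all genes, and 9 of 40 had an unadjusted p below 0.05, a count with no share of all genes beside it. The called gene was MAP1LC3B (chr16:87383995-87404779, plus strand), which encodes LC3B, the ATG8 protein widely used to mark autophagosomes. It had 56.03, 63.1 and 61.6 CPM in RucTotal, against 43.5, 47.8 and 48.04 CPM in Vehicle. All 3 RucTotal samples were above all 3 Vehicle samples, and the differences in replicates 1 to 3 were close, 0.36, 0.40 and 0.36 on the log2 scale. MAP1LC3B rose by 0.37 ± 0.10 (log2, SE; edgeR adjusted p 0.049), and DESeq2 gave an adjusted p of 0.011. In coding transcripts alone, the log2 fold change was 0.39 (edgeR adjusted p 0.021). The call was lost with the replicate number and the transcript length in the model (edgeR adjusted p 0.058). It was also lost without replicate 1, 2 or 3 (edgeR adjusted p 0.074, 0.75 and 0.12), while the log2 fold changes were 0.38, 0.33 and 0.36. Over 13 alternatives the log2 fold change was 0.33 to 0.42 and the gene was called in 5. After 2 h MAP1LC3B had 54.9, 54.2 and 56.1 CPM in RucTotal, against 41.9, 57.4 and 50.7 CPM in Vehicle, which overlap.

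With the replicate number in the model (the replicate block), 9 of the 40 genes were called after 24 h, 7 higher and 2 lower in RucTotal, beside 24.0% of all genes. The 7 higher genes were MAP1LC3B, TFE3, BECN1, RRAGA, GABARAPL2, LAMTOR2 and ATG7, and the 2 lower were LAMTOR3 and WIPI1. With the transcript length of each sample added as well, 2 were called, beside 5.84% of all genes: TFE3, which was higher, and WIPI2, a PI3P effector, which was lower in RucTotal at a log2 fold change of −0.26 ( edgeR adjusted p 0.025). Neither share was above that of all genes.

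BECN1, which encodes Beclin 1, had 123, 121 and 108 CPM in RucTotal, against 100.0, 104 and 99.01 CPM in Vehicle after 24 h. The groups did not overlap. Between the groups the log2 fold change was 0.21 ± 0.078 (SE), with an edgeR adjusted p of 0.11, or 0.017 with the replicate block. ATG7, the enzyme that activates ATG8 and ATG12 for conjugation, had 25.9, 31.7 and 15.96 CPM in RucTotal, against 20.3, 12.1 and 11.2 CPM in Vehicle. These groups overlap, and replicate 2 held the widest gap. Its log2 fold change was 0.75 ± 0.35 (SE; edgeR adjusted p 0.20, or 0.024 with the replicate block). WIPI1, which binds the lipid made by the PI3-kinase complex, had 7.30, 8.93 and 10.9 CPM in RucTotal, against 9.04, 13.1 and 12.6 CPM in Vehicle. Each replicate was lower in RucTotal, although the groups overlap. The fitted log2 fold change was −0.36 ± 0.25 (SE; edgeR adjusted p 0.38), or −0.36 ± 0.088 with the replicate block (0.0092).

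Among the other ATG8 proteins, GABARAPL2 had 42.01, 44.9 and 28.5 CPM in RucTotal, against 27.4, 29.9 and 27.98 CPM in Vehicle after 24 h. The gap stood in replicates 1 and 2, while replicate 3, where transcript lengths were nearly equal, differed by 0.028 on the log2 scale. Its log2 fold change was 0.44 ± 0.17 (SE; edgeR adjusted p 0.13, or 0.016 with the replicate block and 0.34 with the length added). SQSTM1 had 435, 382 and 283 CPM in RucTotal, against 331, 311 and 285 CPM in Vehicle after 24 h. Replicate 3 was nearly level between them, and the log2 fold change of 0.24 ± 0.29 (SE) was not called (edgeR adjusted p 0.63). SQSTM1 after 2 h had 401, 300.1 and 321 CPM in RucTotal, against 480.2, 342 and 302 CPM in Vehicle, which overlap, and the log2 fold change was −0.14 ± 0.29 (SE).

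TFE3 (chrX:49028726-49043486, minus strand) was the MiT factor with the most RNA per length. After 24 h it had 122, 126 and 132 CPM in RucTotal, against 109.8, 105 and 105 CPM in Vehicle. All 3 RucTotal samples were above all 3 Vehicle samples, by 0.16, 0.27 and 0.33 on the log2 scale in replicates 1 to 3. The log2 fold change was 0.25 ± 0.080 (SE; edgeR adjusted p 0.079), and the gene was called with the replicate block (0.012), with the length added (0.011) and by DESeq2 (0.018). Coding transcripts held 62.7% of the TFE3 signal, and a transcript annotated as subject to nonsense-mediated decay held 32.8%. Counting coding transcripts only, TFE3 had 96.4, 87.6 and 100.0 CPM in RucTotal, against 96.2, 84.98 and 86.8 CPM in Vehicle. In these values the groups overlap, and the log2 fold change was 0.084 ± 0.17 (SE; edgeR adjusted p 0.77). After 2 h TFE3 had 93.6, 99.5 and 99.5 CPM in RucTotal, against 94.3, 98.5 and 104 CPM in Vehicle over all transcripts, with a log2 fold change of −0.022 ± 0.080 (SE).

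TFEB, the best known MiT regulator of lysosomal genes, had 4.49, 3.68 and 5.64 CPM in RucTotal, against 4.13, 3.37 and 4.84 CPM in Vehicle after 24 h. MITF, the regulator of melanocyte development, had 3.80, 4.33 and 4.56 CPM in RucTotal, against 4.68, 4.10 and 4.39 CPM in Vehicle. Both pairs of groups overlap, and neither gene was called with or without the replicate block. The log2 fold change of TFEB was 0.16 ± 0.24 (SE) and that of MITF was −0.054 ± 0.20 (SE).

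FLCN, which encodes folliculin, had 25.3, 22.02 and 21.9 CPM in RucTotal, against 21.5, 19.5 and 19.6 CPM in Vehicle after 24 h. Every RucTotal sample was above every Vehicle sample, with a log2 fold change of 0.19 ± 0.19 (SE; edgeR adjusted p 0.56). Its partners FNIP1 and FNIP2 had negative log2 fold changes of −0.38 ± 0.23 and −0.48 ± 0.24 (SE), and neither was called. RRAGA, which encodes the GTPase Rag A, had 56.2, 54.5 and 45.9 CPM in RucTotal, against 39.4, 46.1 and 44.8 CPM in Vehicle. The groups overlap, and the log2 fold change was 0.26 ± 0.094 (SE; edgeR adjusted p 0.11, or 0.035 with the replicate block and 0.54 with the length added). RRAGD had 8.04, 6.78 and 7.03 CPM in RucTotal, against 7.97, 7.44 and 7.89 CPM in Vehicle, which overlap, with a log2 fold change of −0.093 ± 0.11 (SE).

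Ragulator anchors the Rag GTPases to the lysosome. LAMTOR2 (chr1:156054752-156058510, plus strand) had 61.97, 70.3 and 40.98 CPM in RucTotal, against 32.5, 38.9 and 34.7 CPM in Vehicle after 24 h. The groups did not overlap, and the log2 difference was 0.93 and 0.85 in the replicates of unequal transcript length and 0.24 in replicate 3. Its log2 fold change was 0.71 ± 0.20 (SE; edgeR adjusted p 0.059). It was called with the replicate block (0.0055) and by DESeq2 (0.019), and with the block and the length the log2 fold change was 0.27 (edgeR adjusted p 0.053). LAMTOR4 had the largest fitted value of the 40 genes, 0.99 ± 0.45 (log2, SE; edgeR adjusted p 0.19), with 74.6, 73.2 and 27.02 CPM in RucTotal, against 28.96, 32.9 and 26.5 CPM in Vehicle. Its replicate 3 differed by 0.031 on the log2 scale, and with the block and the length its adjusted p was 0.87. LAMTOR3 had lower values in RucTotal, with 8.38, 11.3 and 13.4 CPM in RucTotal, against 14.8, 16.1 and 14.9 CPM in Vehicle and no overlap. For LAMTOR3 the log2 fold change was −0.47 ± 0.21 (SE; edgeR adjusted p 0.17, or 0.042 with the replicate block and 0.51 with the length added).

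MTOR, the kinase itself, had 24.6, 32.3 and 62.8 CPM in RucTotal, against 55.4, 51.6 and 61.7 CPM in Vehicle after 24 h. Replicates 1 and 2 were low in RucTotal and replicate 3 was nearly level. The log2 fold change was −0.49 ± 0.30 (SE; edgeR adjusted p 0.31), and it was −0.019 with the replicate block and the length. After 2 h MTOR had 34.1, 50.9 and 45.3 CPM in RucTotal, against 26.9, 27.7 and 46.3 CPM in Vehicle, and replicates 1 and 2 were higher in RucTotal.

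The other 24 genes had log2 fold changes of −0.25 (ULK1) to 0.24 (FNIP1) after 2 h and of −0.48 (FNIP2) to 0.99 (LAMTOR4) after 24 h, and none was called with or without the replicate block. After 24 h the ULK complex genes ULK1, ULK2 and ATG13 had −0.011, −0.22 and 0.035. ATG14 and UVRAG, which define the 2 forms of the PI3-kinase complex, had −0.25 and 0.14. The PI3P effector WIPI2, the lipid transfer protein ATG2A and the scramblase ATG9A had −0.12, 0.028 and 0.058. In the conjugation machinery, the conjugated protein ATG12, its partners ATG5 and ATG16L1, the conjugating enzyme ATG3 and the proteases ATG4A and ATG4B had −0.055, 0.25, −0.034, 0.026, −0.033 and 0.23. The ATG8 protein GABARAP had 0.45 ± 0.22 (SE), the second largest of the 24. The Ragulator subunits LAMTOR1 and LAMTOR5 had 0.24 and 0.20, and RRAGC had 0.13. The mTORC1 scaffold RPTOR and the inhibitors TSC1 and TSC2 had −0.099, −0.24 and 0.12. Over the 40 genes, 13 were higher and 7 lower in RucTotal in all 3 replicates after 24 h. This count was not made over all genes, so it is not read as a result about the 40. The median difference was 0.12, 0.075 and −0.0084 (log2) in replicates 1, 2 and 3.

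**Figure D2:**
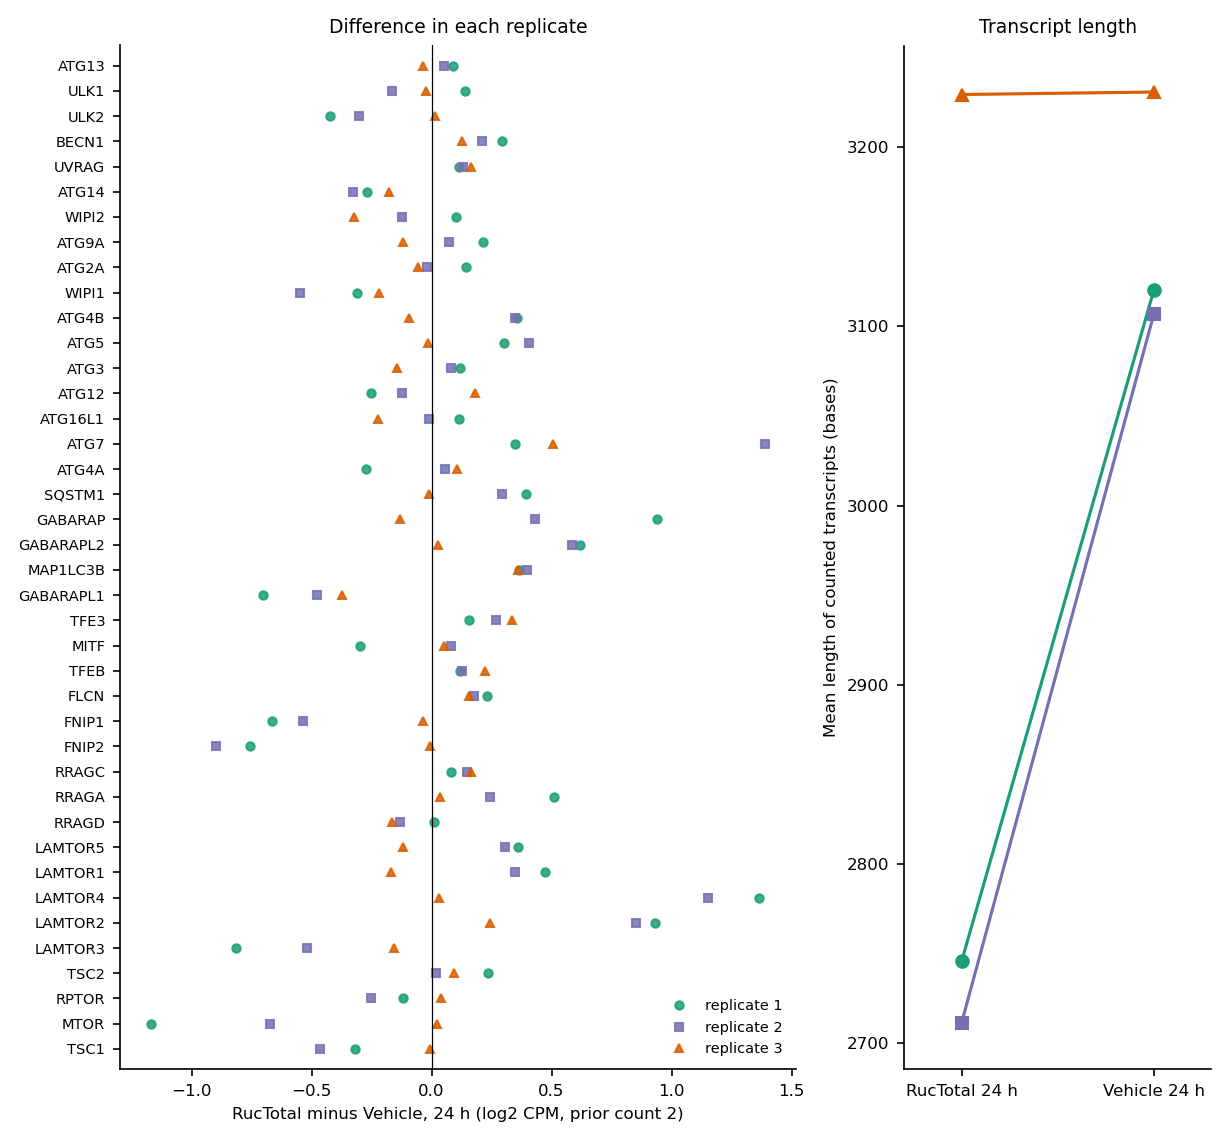
Left, RucTotal minus Vehicle after 24 h for each of the 40 genes (log2 CPM with a prior count of 2), 1 point per replicate. Right, mean length of the counted transcripts (bases) in the 2 groups, a line per replicate: replicates 1 and 2 lie at 2746 and 2711 bases in RucTotal, against 3120 and 3107 bases in Vehicle, and replicate 3 is nearly level. MAP1LC3B is nearly the same in all 3 replicates, whereas LAMTOR4, LAMTOR2, GABARAP and MTOR are near 0 or smaller in replicate 3.

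Whether the drug effect differed between the times was tested as an interaction. None of the 40 genes was called by edgeR, beside 0.139% of all genes, and 4 of 40 had an unadjusted p below 0.05. DESeq2 called 0, beside 5.23% of all genes. With the replicate block 4 were called, beside 18% of all genes: TFE3 with a difference of 0.27, and WIPI1, LAMTOR3 and MTOR with differences of −0.50, −0.91 and −0.98 (log2, effect after 24 h minus effect after 2 h). With the transcript length added, TFE3 was the 1 gene below the threshold, beside 3.77% of all genes, and counting coding transcripts only with the block TFE3 was not called.

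The next comparison set the cells with the most drug against those with the least, both detached and sorted. After 2 h 0 of 40 genes were called by edgeR or DESeq2, beside 0.00497% and 0.232% of all genes. At that time 1 of 40 had an unadjusted p below 0.05. After 24 h 0 of 40 were called by either tool, beside 0.109% (edgeR) and 0.339% (DESeq2) of all genes. At that time 3 of 40 had an unadjusted p below 0.05. The median log2 fold change was 0.078 after 2 h and 0.042 after 24 h over the 40 genes, and −0.0017 and −0.0068 over all genes. With the replicate block 1 gene, WIPI1, was called after 2 h, beside 0.377% of all genes. With the block and the transcript length WIPI1 was the 1 gene called at each time, beside 0.765% of all genes after 2 h and 1.15% after 24 h.

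WIPI1 (chr17:68420948-68457513, minus strand) had 8.44, 12.8 and 14.3 CPM in RucHigh, against 6.69, 9.07 and 10.6 CPM in RucLow after 2 h. WIPI1 after 24 h had 9.45, 12.7 and 12.6 CPM in RucHigh, against 6.76, 10.5 and 10.2 CPM in RucLow. The groups overlap at both times and replicate 1 was the lowest in each group, but RucHigh was higher in 3 of 3 replicates each time, by 0.33, 0.49 and 0.43 after 2 h and by 0.48, 0.27 and 0.31 after 24 h (log2). The log2 fold change after 2 h was 0.43 ± 0.25 (SE; edgeR adjusted p 1.00), or 0.42 ± 0.088 with the replicate block (0.044). Without replicate 1, whose RucLow samples stood apart, it was 0.46, in a fit that called no gene of the whole table in this comparison. After 24 h it was 0.34 ± 0.25 (SE; edgeR adjusted p 1.00), or 0.35 ± 0.088 with the block (0.093). Counting coding transcripts only with the block, the log2 fold change after 2 h was 0.43 (edgeR adjusted p 0.14).

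Of the MiT factors, TFE3 had 105, 102 and 120.2 CPM in RucHigh, against 125, 125 and 128 CPM in RucLow after 24 h, and the groups did not overlap. Its log2 fold change was −0.21 ± 0.080 (SE; edgeR adjusted p 0.97, or 0.23 with the replicate block). After 2 h it had 91.8, 97.7 and 104 CPM in RucHigh, against 109, 95.6 and 110.1 CPM in RucLow, which overlap. MITF had 4.08, 3.43 and 5.21 CPM in RucHigh, against 6.998, 4.84 and 5.45 CPM in RucLow after 24 h. RucLow replicate 1 was the highest of these, and the log2 fold change was −0.44 ± 0.20 (SE; edgeR adjusted p 1.00), or −0.25 without replicate 1. MITF after 2 h had 3.49, 4.16 and 4.16 CPM in RucHigh, against 6.18, 3.18 and 5.30 CPM in RucLow, which overlap. TFEB had 2.92, 3.11 and 2.54 CPM in RucHigh, against 2.87, 4.11 and 3.12 CPM in RucLow after 2 h. After 24 h TFEB had 4.04, 5.64 and 5.66 CPM in RucHigh, against 4.39, 4.01 and 5.25 CPM in RucLow, and the groups overlap at both times. Neither MITF nor TFEB was called at either time.

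SQSTM1 showed the distance of RucLow replicate 1 from the other sorted samples. After 2 h it had 477, 369.8 and 328 CPM in RucHigh, against 560.0, 279 and 255 CPM in RucLow. SQSTM1 after 24 h had 393, 405 and 310.3 CPM in RucHigh, against 558, 314 and 255 CPM in RucLow. RucHigh was lower than RucLow in replicate 1 and higher in replicates 2 and 3 at both times. The log2 fold changes of 0.10 ± 0.29 after 2 h and −0.025 ± 0.29 after 24 h (SE) were not called, and without replicate 1 they were 0.38 and 0.33. FLCN had 27.97, 24.7 and 26.01 CPM in RucHigh, against 35.4, 22.1 and 23.3 CPM in RucLow after 2 h. FLCN after 24 h had 31.5, 26.3 and 24.7 CPM in RucHigh, against 41.7, 24.8 and 24.9 CPM in RucLow, and again RucLow replicate 1 was the highest sample at each time.

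Among the ATG8 proteins, GABARAPL1 had 18.1, 22.5 and 18.2 CPM in RucHigh, against 23.1, 11.8 and 12.3 CPM in RucLow after 2 h. After 24 h it had 15.2, 26.7 and 19.7 CPM in RucHigh, against 18.6, 17.2 and 11.6 CPM in RucLow, and at both times RucHigh was higher in replicates 2 and 3 only. Its log2 fold changes were 0.32 ± 0.30 and 0.38 ± 0.30 (SE). MAP1LC3B had 53.95, 56.3 and 58.02 CPM in RucHigh, against 54.6, 54.6 and 56.2 CPM in RucLow after 24 h, which overlap, a log2 fold change of 0.024 ± 0.10 (SE). RRAGD had 8.69, 9.18 and 10.1 CPM in RucHigh, against 9.26, 7.42 and 7.99 CPM in RucLow after 24 h, and RucHigh was higher in replicates 2 and 3, with a log2 fold change of 0.18 ± 0.11 (SE). MTOR had 37.6, 39.9 and 52.9 CPM in RucHigh, against 46.3, 38.99 and 36.2 CPM in RucLow after 24 h, which overlap, with a log2 fold change of 0.10 ± 0.30 (SE).

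ATG7 was lower in RucHigh in 3 of 3 replicates after 24 h, with 15.7, 19.6 and 11.8 CPM in RucHigh, against 22.1, 25.7 and 17.7 CPM in RucLow, and its log2 fold change was −0.48 ± 0.35 (SE). The groups overlap and the gene was not called. BECN1, RRAGA, LAMTOR2, LAMTOR3 and GABARAPL2 had log2 fold changes of 0.088, 0.14, 0.10, −0.0024 and 0.060 after 24 h, and none was called at either time. The other 24 genes ranged from −0.11 (FNIP2) to 0.29 (GABARAP) after 2 h and from −0.12 (ATG12) to 0.29 (ULK1) after 24 h. ULK1, the kinase that starts autophagy, had 71.7, 75.4 and 70.2 CPM in RucHigh, against 55.01, 62.7 and 61.8 CPM in RucLow after 2 h, and the groups did not overlap. Over the 40 genes, 10 were higher and 0 lower in RucHigh in all 3 replicates after 2 h, and 10 were higher and 4 lower after 24 h. Agreement of replicates was not counted over all genes, so these counts are not read as a result about the 40. As for a change of the difference between RucHigh and RucLow with time, 0 of 40 genes were called in the interaction by edgeR, beside 0% of all genes, with 0 of 40 at an unadjusted p below 0.05. DESeq2 also called 0 there, beside 0.00449% of all genes.

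**Figure D3:**
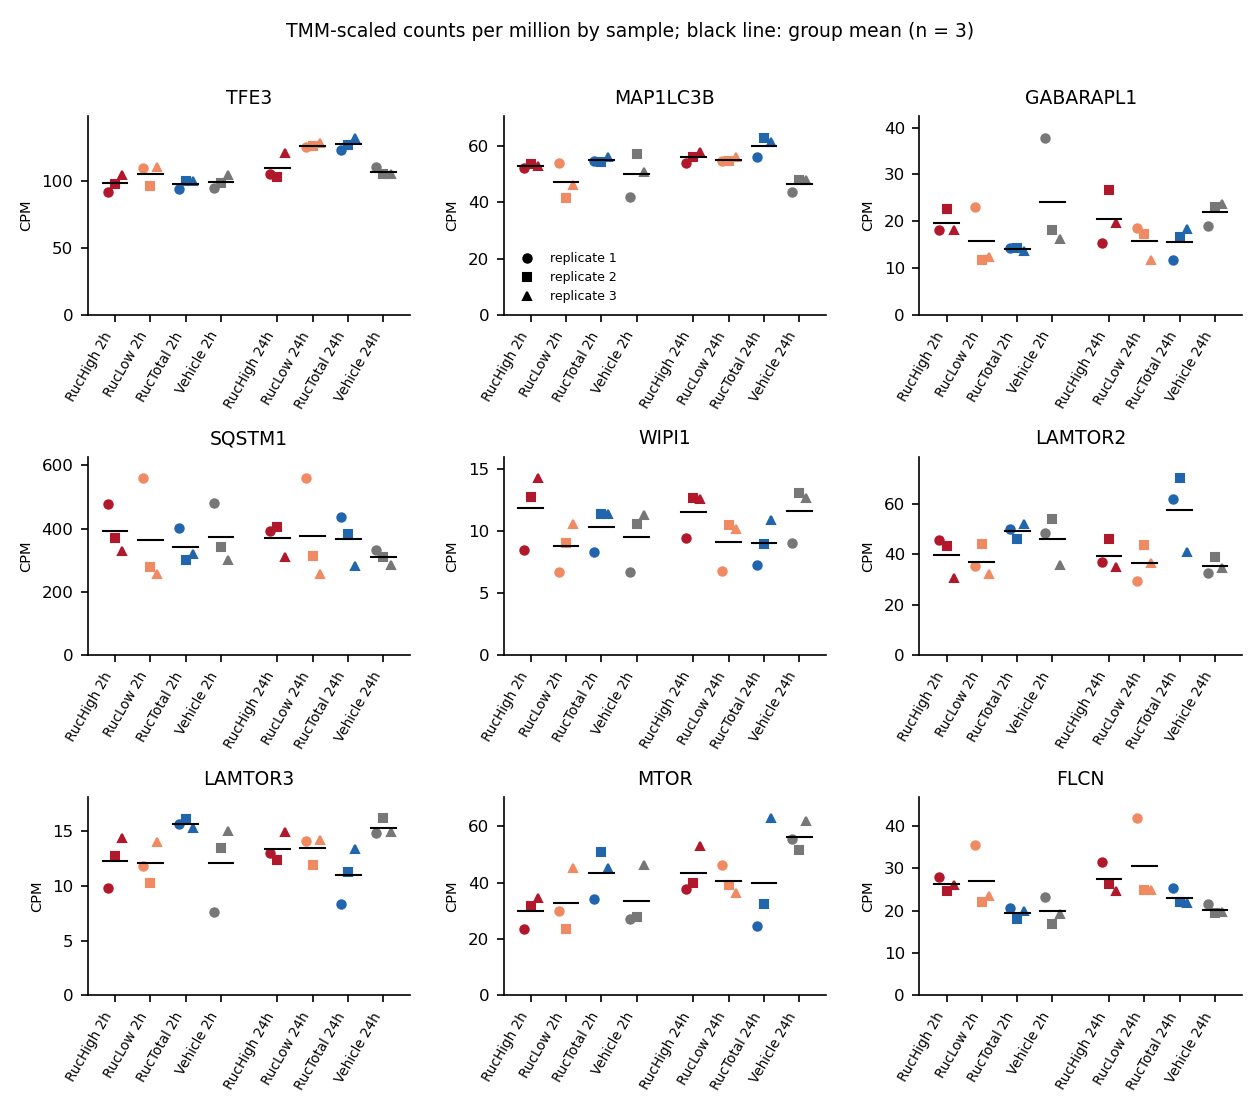
CPM of genes named in the text in every sample, by group (2 h left, 24 h right); symbols are replicates and black lines are group means (n = 3). MAP1LC3B and TFE3 lie higher in RucTotal than in Vehicle after 24 h, WIPI1 is higher in RucHigh than in RucLow within each replicate, and SQSTM1 and FLCN are highest among sorted samples in RucLow replicate 1.

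A sorted group differs from RucTotal by the gate and by detachment and sorting, and these cannot be told apart here. After 24 h, the mean of RucHigh and RucLow was lower than RucTotal for 5 genes and higher for 0, which is 12.5% of the 40 genes, beside 9.47% of all genes. The 5 were ATG13, LAMTOR1, LAMTOR2, LAMTOR5 and RRAGA. Their share was near that of all genes, so it is not read as a result about the 40 genes or a part of them. ATG13 had 106, 119 and 113 CPM in RucHigh and 103, 107 and 102 CPM in RucLow, against 132, 134 and 126 CPM in RucTotal. All 6 sorted samples were below all 3 RucTotal samples, and ATG13 fell by 0.27 on the log2 scale (SE 0.058; edgeR adjusted p 0.0084). LAMTOR2 fell by 0.61, LAMTOR1 by 0.55, LAMTOR5 by 0.39 and RRAGA by 0.29 on the log2 scale, with edgeR adjusted p values of 0.034, 0.048, 0.041 and 0.031. With the replicate block and the length, the 5 genes were among 8 called, beside 18.2% of all genes, at log2 fold changes of −0.19 (RRAGA) to −0.35 (LAMTOR2). Without replicate 1, and likewise without replicate 2, 0 of the 40 genes were called, and counting coding transcripts only without the block none of the 5 was. RucTotal replicates 1 and 2 also had shorter transcripts than every sorted sample after 24 h, at 2746 and 2711 bases, against 2984 to 3142 bases in sorted samples. The mitochondrial share of reads was 1.57% to 4.24% in sorted samples after 24 h, against 0.260% to 0.448% in RucTotal, and the part of either in the result was not tested. These values share the RucTotal samples with the comparison against Vehicle.

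After 24 h with the replicate block, 12 genes were called, 3 higher (FLCN, FNIP1 and RRAGD) and 9 lower (the 5 above with ATG3, ATG5, BECN1 and GABARAPL2), beside 24.7% of all genes. After 2 h edgeR called 0 of 40, beside 2.41% of all genes, with 8 of 40 at an unadjusted p below 0.05. DESeq2 called 3, ULK1 as higher and ATG13 and LAMTOR5 as lower in sorted cells, beside 7.65% of all genes. Adding the replicate block, 6 were called after 2 h, 2 higher (FLCN and ULK1) and 4 lower (ATG13, ATG3, GABARAPL2 and LAMTOR5), beside 14.9% of all genes. FLCN had log2 fold changes of 0.44 ± 0.17 after 2 h and 0.33 ± 0.17 after 24 h (SE), with edgeR adjusted p values of 0.16 and 0.22 without the block.

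Over time, RucTotal had 1 gene called, beside 1.92% of all genes. TFE3 was higher after 24 h than after 2 h by 0.38 ± 0.080 (log2, SE; edgeR adjusted p 0.020), and all 3 samples after 24 h were above all 3 after 2 h. In coding transcripts alone, the log2 fold change was 0.45 (edgeR adjusted p 0.15), and without replicate 1, 2 or 3 TFE3 was not called (0.11, 0.37 and 0.081). With the replicate block TFE3 and LAMTOR3, which was lower after 24 h, were called, beside 12.3% of all genes.

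In the other groups edgeR called 0 of 40 genes over time, with 4 of 40 at an unadjusted p below 0.05 in each of Vehicle, RucLow and RucHigh. The shares of all genes called were 0.0248% in Vehicle, 0.278% in RucLow and 0.223% in RucHigh. DESeq2 called 0 in Vehicle, beside 1.125% of all genes. It called 1 in RucLow (TFE3, higher after 24 h), beside 1.68% of all genes, and 1 in RucHigh (TFEB, higher after 24 h), beside 1.85%. TFEB in RucHigh had a time difference of 0.84 ± 0.24 (log2, SE; edgeR adjusted p 0.18, or 0.051 with the replicate block). All 3 of its RucHigh samples after 24 h were above all 3 after 2 h. With the block, 4 genes were called in Vehicle (MTOR and WIPI1 higher, ATG3 and ATG4B lower after 24 h), beside 9.42% of all genes, and 2 in RucLow (TFE3 higher, ATG16L1 lower after 24 h), beside 2.50% of all genes. With the transcript length added, 0 of 40 were called in Vehicle, beside 0.0298% of all genes.

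**Figure D4:**
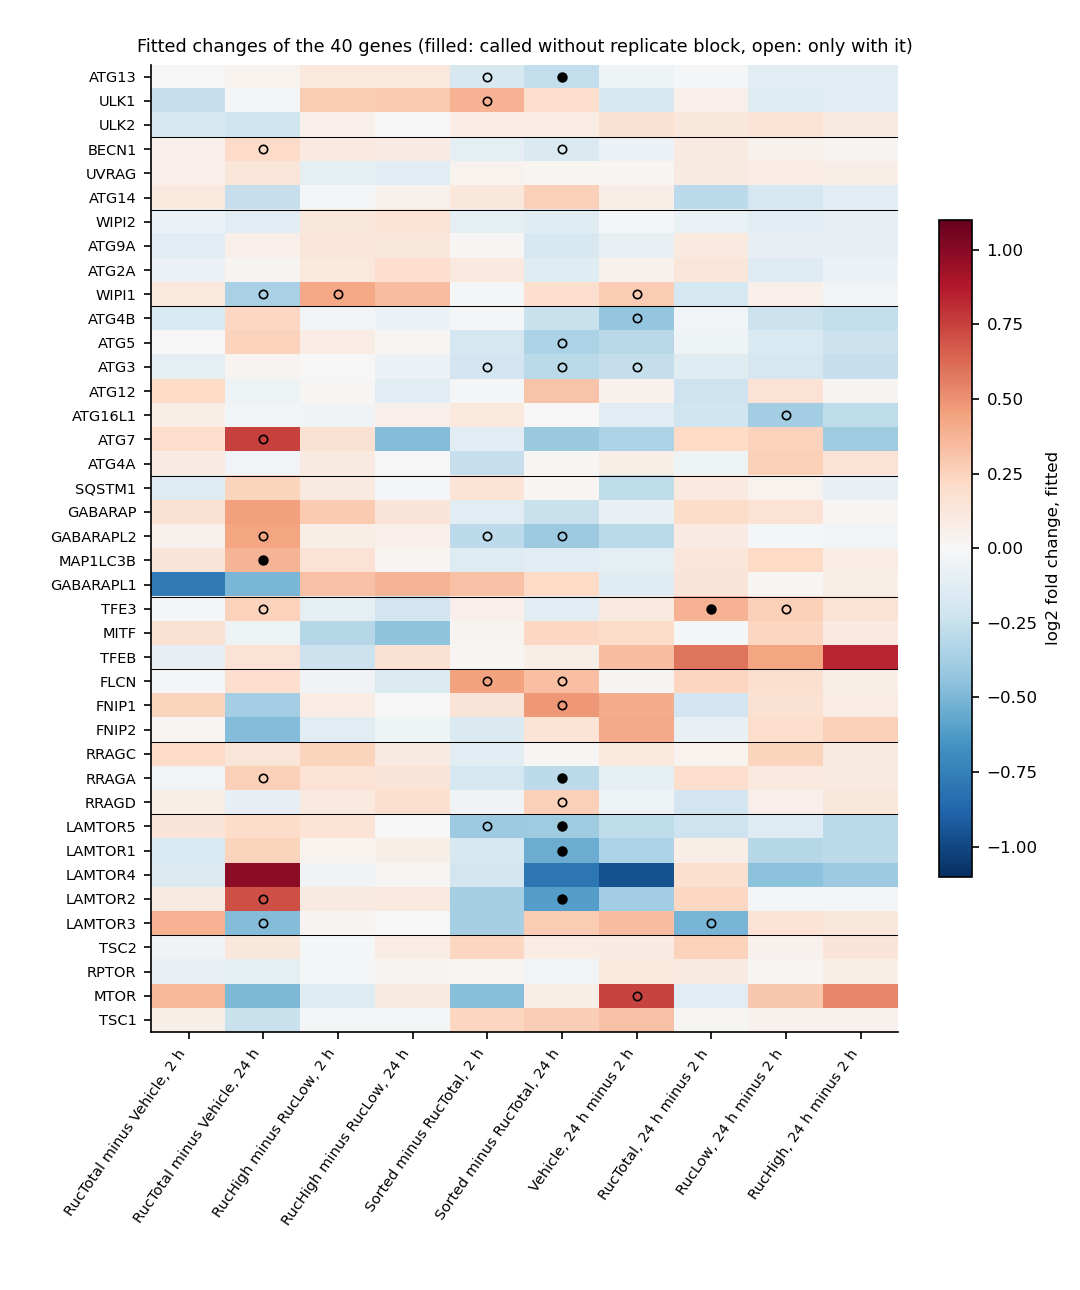
Fitted log2 fold changes of the 40 genes (rows, grouped by role) in 10 comparisons (columns); red is higher in the group named first. Filled circles mark genes called without the replicate block and open circles those called only with it. The filled circles are MAP1LC3B in RucTotal minus Vehicle after 24 h, 5 genes in sorted minus RucTotal after 24 h, and TFE3 in RucTotal over time.

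Other genes of the pathway were read from a list of 64, of which 63 were tested. The list was chosen with earlier results of these data known. Its counts beside the shares of all genes are therefore not read as an excess. Between RucTotal and Vehicle 0 were called after 2 h, while after 24 h 3 were higher and 2 lower in RucTotal. The shares of all genes called were 0.0248% and 3.35%. SESN2, which encodes Sestrin 2, a stress-induced inhibitor of mTORC1, had 36.4, 34.2 and 33.1 CPM in RucTotal, against 13.1, 12.3 and 12.4 CPM in Vehicle after 24 h. The groups did not overlap, and SESN2 rose by 1.45 ± 0.21 (log2, SE; edgeR adjusted p 0.0017), but 0 of its 1 coding transcript of the primary assembly was used here, and the value covers 1 other transcript, of type not known here. EIF4EBP1, the translational repressor that mTORC1 phosphorylates, had 137, 177 and 111 CPM in RucTotal, against 70.6, 87.4 and 75.5 CPM in Vehicle, and rose by 0.86 ± 0.17 (log2, SE; edgeR adjusted p 0.012). Its gap was smallest in replicate 3, where transcript lengths were nearly equal. TOLLIP, an autophagy receptor, rose by 0.47 ± 0.13 (log2, SE; edgeR adjusted p 0.049).

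CASTOR2, a relative of the arginine sensor CASTOR1, had 6.42, 7.59 and 9.23 CPM in RucTotal, against 10.9, 14.8 and 17.3 CPM in Vehicle after 24 h, and fell by 0.89 on the log2 scale (SE 0.21; edgeR adjusted p 0.030). RB1CC1, which encodes the ULK complex scaffold FIP200, fell by 0.60 on the log2 scale (SE 0.16; edgeR adjusted p 0.049), and with the replicate block and the length its adjusted p was 0.20. Without replicate 2, edgeR called 3 of 20252 genes of the whole table between RucTotal and Vehicle after 24 h. The calls of SESN2, EIF4EBP1, TOLLIP, CASTOR2 and RB1CC1 therefore cannot all hold in that fit. The fit of only the groups compared called 9 of 17968 genes.

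Between RucHigh and RucLow, 0 of the 63 were called after 2 h and 2 after 24 h, both higher in RucHigh, beside 0.00497% and 0.109% of all genes. DEPTOR, an inhibitory partner of MTOR, had 3.52, 6.01 and 3.68 CPM in RucHigh, against 1.94, 1.70 and 1.503 CPM in RucLow after 24 h, and rose by 1.36 ± 0.23 (log2, SE; edgeR adjusted p 0.027). GPNMB, a glycoprotein known as a target of MITF, had 3.60, 4.03 and 3.53 CPM in RucHigh, against 1.96, 1.70 and 1.51 CPM in RucLow, and rose by 1.11 ± 0.19 (log2, SE; edgeR adjusted p 0.029). For both genes all 3 RucHigh samples were above all 3 RucLow samples, at few CPM. Neither call held without replicate 1, 2 or 3, or in the fit of only the groups compared. Each of these fits called 0% of all genes in this comparison.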

How the data were processed

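PolyA RNA of PEO1 cells was sequenced in 72 libraries. The authors deposited, for each library, estimated counts and TPM per transcript with effective lengths, all made by Salmon, whose version is not given in the sources used here. Cutadapt 4.7, DESeq2 1.44.0 and GRCh38 stand in the submitters' processing notes too. Of 257369 transcripts, 194437 were matched to a gene by GENCODE 29 and 11676 by its table of gene symbols. Transcripts with no match (7.10% to 8.95% of the reads) were left out. 0 pairs of files were identical, and libraries of 1 replicate always differed beyond counting noise, by a chi-square of at least 5.85 per degree of freedom. Libraries of a replicate were summed, and the estimated counts were rounded.

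Counts were tested with edgeR 4.0.16 in R 4.3.3 (filterByExpr, TMM, quasi-likelihood test, 24 samples in 1 fit of 8 group means, Benjamini-Hochberg over 20135 genes). Alternatives were DESeq2 1.42.0, its size factors, no filter on low counts, the replicate block alone, with the mean transcript length or without libraries under 2800 bases, an offset for effective length, fits restricted to the groups under comparison and each replicate left out. Counting coding transcripts only was chosen after seeing the data. The code was tested on simulated data. The study's methods name no test for these libraries.

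Same-numbered samples were taken as pairs because, by the study's reporting summary, replicates of imaging and FACS experiments came from different days. The summary does not name these RNA libraries, and RucTotal and Vehicle were not sorted, so the pairing is an assumption. Deviations from group means correlated at a median of 0.286 between samples of the same number (−0.0643 to 0.606) and of −0.124 between different numbers. Deviations sum to 0 within each group, so the second value follows largely from the first and is no separate evidence of pairing. Values per sample are given for genes called with or without the block between RucTotal and Vehicle or RucHigh and RucLow, and for TFEB, TFE3, MITF, SQSTM1, MAP1LC3B, GABARAPL1, RRAGD, FLCN and MTOR. Genes called only in other comparisons, and LAMTOR4, ULK1, FNIP1 and FNIP2, were named after their values were seen. Members and lists were chosen with earlier results of these data known.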

Additional observations from a re-analysis of the deposited data

Results flagged for a closer look

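With the replicate block, the difference between RucTotal and Vehicle was not the same at the 2 times for 4 genes, by an interaction test over all genes. MTOR had a difference of −0.98 ± 0.32 (log2, effect after 24 h minus effect after 2 h, SE; edgeR adjusted p 0.043), LAMTOR3 of −0.91 ± 0.24 (0.020), WIPI1 of −0.50 ± 0.12 (0.016) and TFE3 of 0.27 ± 0.092 (0.047). Without the block none of the 4 was called, with edgeR adjusted p values of 0.24, 0.15, 0.43 and 0.19. With the transcript length added to the block, the values were −0.36 for MTOR, −0.63 for LAMTOR3, −0.39 for WIPI1 and 0.34 for TFE3, and TFE3 was the 1 gene called (0.042). TFE3 counted over coding transcripts only, with the block, had 0.10 (edgeR adjusted p 0.75).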

How the results depend on the processing

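Samples were taken as paired by replicate number. The replicate block called, after 24 h, 9 genes between RucTotal and Vehicle and 12 between sorted cells and RucTotal, and after 2 h 6 between sorted cells and RucTotal and 1 between RucHigh and RucLow; over time it called 4 in Vehicle, 2 in RucTotal and 2 in RucLow, and 4 in the interaction of drug and time. It changed no other count. With the transcript length added, the counts were 2 for RucTotal against Vehicle and 8 for sorted against RucTotal after 24 h, 10 for sorted against RucTotal after 2 h, 1 for RucHigh against RucLow at each time, 7 over time in RucTotal, 2 in RucLow, 0 in Vehicle and 1 in the interaction. That setting called 18.2% of all genes for sorted against RucTotal after 24 h (20% of the 40) and 23.9% after 2 h (25% of the 40), and over time 23.6% in RucTotal (17.5% of the 40) and 5.13% in RucLow (5% of the 40). With the block and without the 18 libraries under 2800 bases, RucTotal against Vehicle had 2 after 2 h and 7 after 24 h, RucHigh against RucLow 1 at each time, sorted against RucTotal 3 and 11, the time comparisons 3 in Vehicle, 7 in RucTotal, 4 in RucLow and 1 in RucHigh, and the interaction 12. It called 5.44% and 17.9% of all genes for RucTotal against Vehicle, 12.5% and 22.5% for sorted against RucTotal after 2 and 24 h, 11.2%, 17.98% and 5.48% over time in Vehicle, RucTotal and RucLow, and 25.1% in the interaction. For RucHigh against RucLow it called 0.451% and 0.854% of all genes after 2 and 24 h, and over time in RucHigh 4.31%.

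Without the block, DESeq2 called 3 genes between RucTotal and Vehicle after 24 h, 3 between sorted cells and RucTotal after 2 h, 1 over time in RucLow and 1 in RucHigh, beside 12.1%, 7.65%, 1.68% and 1.85% of all genes. Its size factors within edgeR gave 0 for RucTotal against Vehicle after 24 h, beside 3.24% of all genes. The offset for effective length gave 0 for RucTotal against Vehicle after 24 h, 1 and 2 for sorted against RucTotal after 2 and 24 h and 0 over time in RucTotal. Its shares of all genes, in this order, were 0.611%, 0.546%, 4.91% and 0.452%. Fits of only the groups compared gave 0, 1, 0 and 0 for the same 4 comparisons, beside 0.0501%, 2.54%, 1.21% and 0.0391% of all genes. No filter on low counts gave 2 for sorted against RucTotal after 24 h and 0 over time in RucTotal, beside 3.04% and 0.496% of all genes. Leaving out 1 replicate gave 0 to 6 genes between RucTotal and Vehicle after 24 h, 0 to 11 between sorted cells and RucTotal after 24 h, and 0 to 7 in the interaction of drug and time, each highest count without replicate 3, and 0 to 0 over time in RucTotal. The fit without replicate 3 called 13.54% of all genes for RucTotal against Vehicle and 14.47% for sorted against RucTotal after 24 h. It called 15.25% of all genes in the interaction. Counting coding transcripts only gave 0 for sorted against RucTotal after 24 h and 0 over time in RucTotal, beside 4.495% and 2.79% of all genes. With the block it gave 9 for RucTotal against Vehicle after 24 h, 3 and 9 for sorted against RucTotal after 2 and 24 h, 2 over time in Vehicle, 1 in RucHigh and 3 in the interaction, beside 27.9%, 10.8%, 22.7%, 11.97%, 2.98% and 22.3% of all genes. The cause of these shifts was not tested.

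Of 962 values of named genes under the alternatives, 823 kept their direction and side of the threshold, 52 changed sign, 44 passed and 43 lost the threshold, and 0 values called in either fit changed sign. The number of replicates, unequal transcript length and unused transcripts limit what these libraries can show, and genes at few CPM, such as MITF and TFEB, rest on the fewest reads.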
